A study of Mus musculus with 6 samples.

Results

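The cytosolic ribosomal protein genes were compared between regulatory T cells (Treg) of liver and of spleen. Members were the genes whose symbol on the array is Rpl or Rps with a number and an optional suffix, or Rplp0, Rplp1, Rplp2 or Rpsa. Kinases named Rps6k and pseudogenes with a -ps ending were left out, and a symbol with several rows was represented by the row with the highest mean. This gave 87 of the 38854 genes tested, 30 of the small subunit, 43 of the large subunit, 3 of the stalk and 11 paralogs or copies. The 76 genes other than paralogs and copies are called canonical below. Rps27 and Fau encode ribosomal proteins too but are not members here.

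The study measured total RNA of Treg on 6 Affymetrix arrays. All cells came from Foxp3-GFP mice, in which a fluorescent reporter marks the transcription factor that defines Treg. All mice were given IL-2/IL-2Ab complex, in which an antibody carries interleukin-2 and which makes Treg multiply, on 3 days running and were then left for 3 days. Liver Treg were on arrays numbered 2, 3 and 7 and spleen Treg on arrays 4, 5 and 6. Treg without the complex were not analysed here, so all values are those of expanded cells. The labels name both a fluorescence sorter and magnetic isolation, name the array in the protocol as Mouse Gene ST 2.0 and in the table headers as Mouse Transcriptome Array 1.0, and give no age. They do not say if the arrays are of separate animals, or if liver and spleen arrays share animals. The p-values thus cover only the spread from array to array, taken partly from all genes together, and this spread may be technical.

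A cytosolic ribosome is built from a small subunit, which reads the mRNA, and a large subunit, which joins amino acids, and its stalk of P proteins recruits the translation factors. The proteins are made in matched amounts, and T cells raise ribosome production when antigen or interleukin-2 makes them grow. Most of these mRNAs begin with a cytosine followed by a run of pyrimidines, the 5′ terminal oligopyrimidine (TOP) motif, through which mTORC1 controls their translation. Translation was not measured here, and values below are mRNA signals.

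The sequence at the start of transcription is the feature by which these mRNAs are known, and 6 starts with such a run and 1 without are shown to let it be seen. Each window holds the 10 bases before the annotated start and the 20 from it onwards, 30 bases in all, 5′ to 3′ on the strand of the gene, from RefSeq with the build GRCm38.p6. Capitals mark a run of at least 5 C or T bases that begins with C within 5 bases of the annotated start. The small-subunit genes are Rps6 (chr4:86857348-86857377, minus strand) and Rps18 (chr17:33955646-33955675, minus strand), and the large-subunit genes are Rpl38 (chr11:114668570-114668599, plus strand) and Rpl15 (chr14:18270967-18270996, minus strand). Rplp2 (chr7:141447641-141447670, plus strand) is of the stalk, and Rpl22l1 (chr3:28805498-28805527, plus strand) and Rpl10l (chr12:66284382-66284411, minus strand) are paralogs.
Rps6: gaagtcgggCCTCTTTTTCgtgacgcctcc
Rps18: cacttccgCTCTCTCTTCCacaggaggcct
Rpl38: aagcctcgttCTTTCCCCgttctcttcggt
Rpl15: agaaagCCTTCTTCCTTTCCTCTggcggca
Rplp2: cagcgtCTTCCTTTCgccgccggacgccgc
Rpl22l1: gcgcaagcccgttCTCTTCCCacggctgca
Rpl10l: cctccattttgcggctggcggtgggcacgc

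A run of this kind was present at 30 of 75 annotated starts of 63 members (40.0%), against 18.3% of all 32851 promoters. The starts were taken from the RefSeq promoter table and cover 63 of the 87 members. The other members had no entry in it or lay on an excluded chromosome. Members on that chromosome were left out, but its promoters were kept among all promoters. The shares given here and below are thus not of matched sets. CGGAAG, the core that Ets factors such as Gabpa bind, was found on either strand in 45 of the 75 promoters and in 16.9% of all promoters, in windows from 250 bases before to 50 after the start. CACGTG, the E-box bound by Myc and Max, was in 10.7% against 7.2%, and TATAAA in 9.3% against 13.6%. The 4 windows that follow hold the 60 bases before the annotated start. They show the Ets core in capitals, written CTTCCG where it lies on the other strand: Rps6 (chr4:86857368-86857427, minus strand), Rpl38 with adjoining matches (chr11:114668520-114668579, plus strand), Rps7 (chr12:28635954-28636013, minus strand) and, with no match in the window, Rpl10l (chr12:66284402-66284461, minus strand).
Rps6: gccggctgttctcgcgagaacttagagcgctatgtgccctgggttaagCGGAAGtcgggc
Rpl38: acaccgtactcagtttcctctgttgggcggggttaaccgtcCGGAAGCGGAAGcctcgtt
Rps7: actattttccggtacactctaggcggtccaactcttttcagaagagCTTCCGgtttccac
Rpl10l: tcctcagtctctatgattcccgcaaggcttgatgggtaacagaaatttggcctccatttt

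A match is a description of letters, not a bound site. The sequence groups differed little in their expression differences. The median liver minus spleen difference was -0.04 on the log2 scale in the 28 genes with a pyrimidine run and -0.04 in the 35 without, and -0.04 in the 42 genes with the Ets core against -0.03 in the 21 without.

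The arrays set limits that touch all values below. Values are log2 signals, 1 per array and gene, with a precision limited by the number of arrays. The median over all genes was 6.25 on spleen array 5 and 5.99 to 6.10 on the other arrays, and its background rows averaged 4.55, against 4.09 to 4.34 elsewhere. The Treg markers Foxp3, Il2ra, Ctla4, Ikzf2, Cd4 and Cd3e lay at 9.31 to 12.16 on every array, with a summed linear signal of 14968 to 16018 in liver and 14929 to 15992 in spleen. Summed signals of 5 NK cell markers were 3346 to 4466 in liver and 2165 to 2774 in spleen, and those of 5 dendritic cell markers 529 to 809 and 359 to 451. Those of the 2 CD8 T cell markers were 681 to 709 and 402 to 630. The ranges of the NK cell, dendritic cell and CD8 T cell markers did not overlap between tissues, whereas those of the Treg markers did. The 4 B cell markers summed to 316 to 367 in liver and 284 to 337 in spleen, which overlapped, with all 4 differences above 0. The hepatocyte markers summed to 209 to 228 in liver and 188 to 234 in spleen. The 4 macrophage and Kupffer cell markers also overlapped, with sums of 185 to 196 in liver and 190 to 228 in spleen. Their differences were above 0 in 2 and below 0 in 2. Of these markers, Spic was lower in liver by limma (difference -0.97, adjusted p = 0.0425), with liver values near the background rows. The part of these other cells in the values of ribosomal protein genes was not tested, and in bulk RNA fewer cells of a type and less RNA per cell cannot be told apart.

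Liver and spleen Treg held nearly the same level of ribosomal protein mRNA. None of the 87 genes passed limma's test at an adjusted p of 0.05 (0 higher and 0 lower in liver), where 0.0206% of all genes tested did, 0.0103% in each direction. None had an unadjusted p under 0.05 by limma either, against 3.77% of all genes, and the smallest was 0.111. For its tests and intervals limma draws the spread of each gene towards that of all genes. The members' own spread was smaller, with a median residual SD of 0.089 against 0.145 over all genes. Rpl11, with a residual SD of 0.043, had an SE of 0.105. The members' p-values and interval widths thus rest largely on the shared spread. With array weights limma called 9.09% of all genes and 0 of the 87. The median difference was -0.04 on the log2 scale, a liver level of 0.974 times that of spleen, beside a median of -0.02 over all genes and 0.02 over the 9433 genes at least as bright as the dimmest canonical member. Every 95% confidence interval lay within 0.5 on the log2 scale, which is 1.41-fold, in either direction, as it did for 88.4% of all genes. The outermost bounds were -0.50 for Rplp1 and 0.40 for Rpl22l1, so larger differences are outside the intervals of this fit. Some alternatives gave wider bounds, down to -0.62 without spleen array 6 and up to 0.53 without liver array 7.

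Most of the small differences pointed the same way. The difference was below 0 in 66 of 87 members and in 64 of 76 canonical members (84.2%), against 57.7% of all genes and 40.7% of the bright genes. It was below 0 in 28 of 30 small-subunit genes, 34 of 43 large-subunit genes, 2 of 3 stalk genes and 2 of 11 paralogs and copies. With the deposited scaling the direction turned without spleen array 4, where the median difference was 0.01 and 48 of the 87 genes were above 0, and leaving out the other arrays gave -0.08 to -0.01. The median was -0.05 after quantile normalization, with 69 of 87 below 0, and -0.05 after cyclic loess, with 74 below 0, but -0.02 after subtraction of array medians and -0.0027 with array weights.

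The members also varied little. The absolute difference was under 0.1 in 71 of 87 (81.6%), against 66.1% of all genes and 64.3% of the bright genes. The median range over the 6 arrays was 0.23, against 0.38 over all genes and 0.33 over the bright genes. The members were brighter than both, with a median mean of 9.76 against 6.10 and 8.70. The part of brightness in these ranges was not tested. Liver arrays lay wholly below spleen arrays in 1 member, Rpl11 (3.09% of all genes), and wholly above in 0 (3.11% of all genes), where the groups of 6.19% of all genes did not overlap in either direction. The count of 1 moved with the setting: 35 members lay wholly below without spleen array 6 (8.84% of all genes), 8 without liver array 3 (7.4%), 8 after quantile normalization (5.06%) and 8 after cyclic loess (5.25%).

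**Figure D1:**
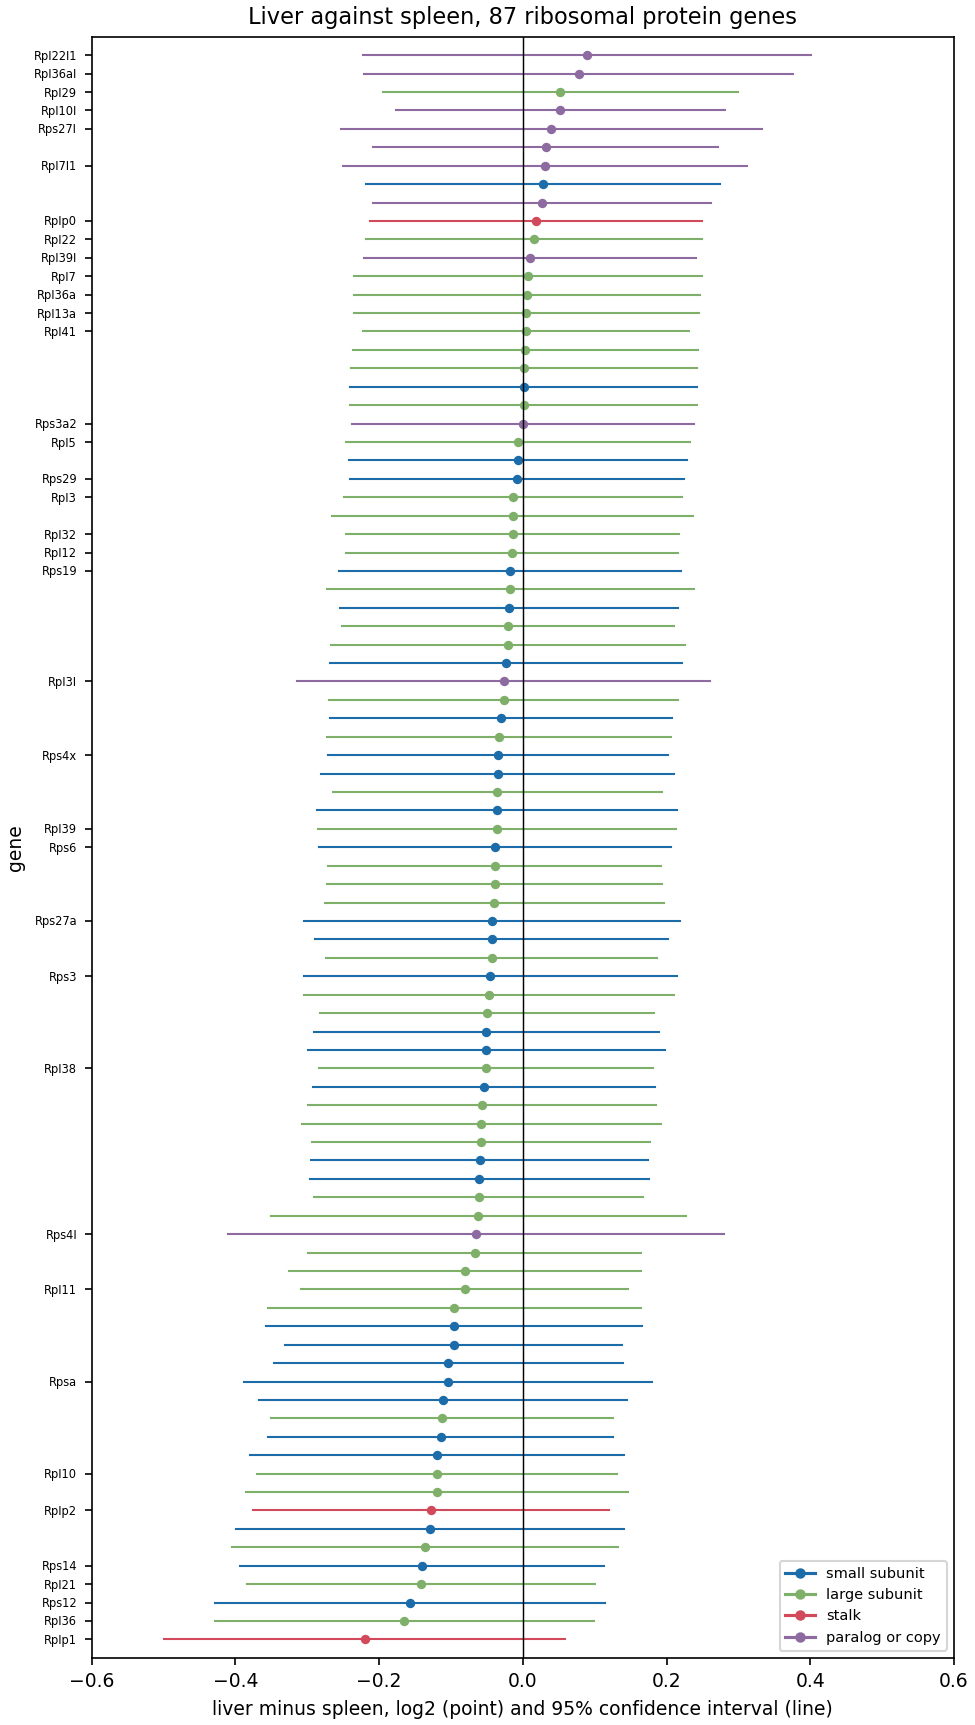
Liver minus spleen difference on the log2 scale of each of the 87 genes (point) with its 95% confidence interval from limma (line), ordered by size and coloured by subunit, with names for the genes named by rule. Points run from -0.22 for Rplp1 to 0.09 for Rpl22l1 and every interval crosses 0.

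In the stalk, Rplp1 and Rplp2 were high on spleen arrays 4 and 5, and Rplp0 was nearly level. Rplp0, the scaffold that ties the stalk to the large subunit, measured 9.90, 9.95 and 9.85 on liver arrays 2, 3 and 7 and 9.92, 9.91 and 9.81 on spleen arrays 4, 5 and 6. The groups overlapped, with a difference of 0.02 (SE 0.11, 95% interval -0.21 to 0.25). Rplp1, which pairs with Rplp2 to form the arms that contact elongation factors, measured 11.33, 11.52 and 11.40 in liver and 11.74, 11.78 and 11.39 in spleen. Spleen arrays 4 and 5 were above all liver arrays, and spleen array 6 lay among them. Its difference of -0.22 (SE 0.13, 95% interval -0.50 to 0.06) was the most negative of all members, a liver level of 0.859 times that of spleen, and did not pass (unadjusted p = 0.111, adjusted p = 1 by limma). Rplp2 followed the same order of arrays, with 8.56, 8.67 and 8.60 in liver and 8.81, 8.82 and 8.58 in spleen. Its difference was -0.13 (95% interval -0.38 to 0.12), and again only spleen array 6 overlapped with liver.

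Among the 30 small-subunit genes the median difference was -0.05, and the most negative was that of Rps12. Rps6, whose protein is the substrate of the S6 kinases downstream of mTORC1, measured 10.22, 10.31 and 10.22 in liver and 10.43, 10.17 and 10.27 in spleen. Spleen held both its highest and its lowest array, and the difference was -0.04 (95% interval -0.28 to 0.21). Rpsa, a small-subunit protein also described as a laminin receptor, measured 10.30, 10.42 and 10.35 in liver and 10.60, 10.58 and 10.19 in spleen. The spread among its spleen arrays (SD 0.23, n = 3) was larger than the tissue difference of -0.10. Rps14, whose loss causes the anaemia of the 5q- syndrome in humans, measured 8.20, 8.28 and 8.15 in liver and 8.39, 8.48 and 8.18 in spleen. Spleen arrays 4 and 5 were again above all liver arrays, and the difference was -0.14 (95% interval -0.39 to 0.11).

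Rps12 had the most negative difference of the small subunit, -0.16 (95% interval -0.43 to 0.11), from 9.91, 10.02 and 9.91 in liver and 10.30, 10.12 and 9.89 in spleen. Rps3, which lines the channel where mRNA enters, measured 9.46, 9.50 and 9.36 in liver and 9.57, 9.60 and 9.30 in spleen. Rps19, the gene most often mutated in human Diamond-Blackfan anaemia, measured 7.92, 7.97 and 7.88 in liver and 8.04, 7.95 and 7.83 in spleen. In both genes spleen array 6 was the lowest array, and their differences were -0.05 and -0.02. Rps27a, made as a fusion with ubiquitin, measured 9.25, 9.35 and 9.15 in liver and 9.48, 9.19 and 9.22 in spleen, a difference of -0.04. Rps4x differed by -0.03 and Rps29 by -0.01, with ranges over the 6 arrays of 0.19 and 0.14.

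Among the 43 large-subunit genes the median difference was -0.04. Rpl5 and Rpl11 bind the 5S ribosomal RNA together and, when ribosome assembly fails, hold back Mdm2, the inhibitor of p53. Rpl11 measured 8.48, 8.52 and 8.50 in liver and 8.57, 8.64 and 8.52 in spleen. All liver arrays were below all spleen arrays, though liver array 3 and spleen array 6 were equal to 2 decimals, and the difference was -0.08 (95% interval -0.31 to 0.15). Rpl5 measured 9.76, 9.82 and 9.68 in liver and 9.86, 9.67 and 9.74 in spleen, a difference of -0.01 with full overlap. The partners thus had different orders of arrays, Rpl11 highest and Rpl5 lowest on spleen array 5.

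Rpl36, a large-subunit protein, had the most negative difference of that subunit, -0.17 (95% interval -0.43 to 0.10), from 11.58, 11.84 and 11.79 in liver and 12.00, 11.96 and 11.75 in spleen. Liver array 2 was the low point, and spleen array 6 lay below liver arrays 3 and 7. Rpl21 measured 7.87, 7.96 and 7.85 in liver and 8.17, 7.99 and 7.95 in spleen, where liver array 3 and spleen array 6 overlapped, a difference of -0.14. Rpl10, which joins the large subunit late in its maturation, measured 9.89, 9.97 and 9.81 in liver and 10.14, 10.01 and 9.87 in spleen, a difference of -0.12 (95% interval -0.37 to 0.13). At the other end Rpl29 had the most positive difference of the canonical members, 0.05 (95% interval -0.19 to 0.30), from 11.09, 11.14 and 11.02 in liver and 11.10, 11.11 and 10.88 in spleen. Spleen array 6 alone was below the liver arrays of Rpl29.

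Several large-subunit genes with roles beyond bulk translation were nearly level. Rpl22, which mouse T cells of the alpha-beta lineage need for their development, measured 8.42, 8.49 and 8.52 in liver and 8.55, 8.42 and 8.40 in spleen, a difference of 0.02. Rpl13a, whose protein silences inflammatory mRNAs in human monocytes when released from the ribosome, differed by 0.01 (95% interval -0.23 to 0.24). Rpl38, needed in mouse embryos for translation of Hox mRNAs, measured 11.64, 11.72 and 11.64 in liver and 11.75, 11.77 and 11.63 in spleen, a difference of -0.05. Rpl41 had the narrowest range of all members, 0.09 over the 6 arrays, and a difference of 0.00.

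**Figure D2:**
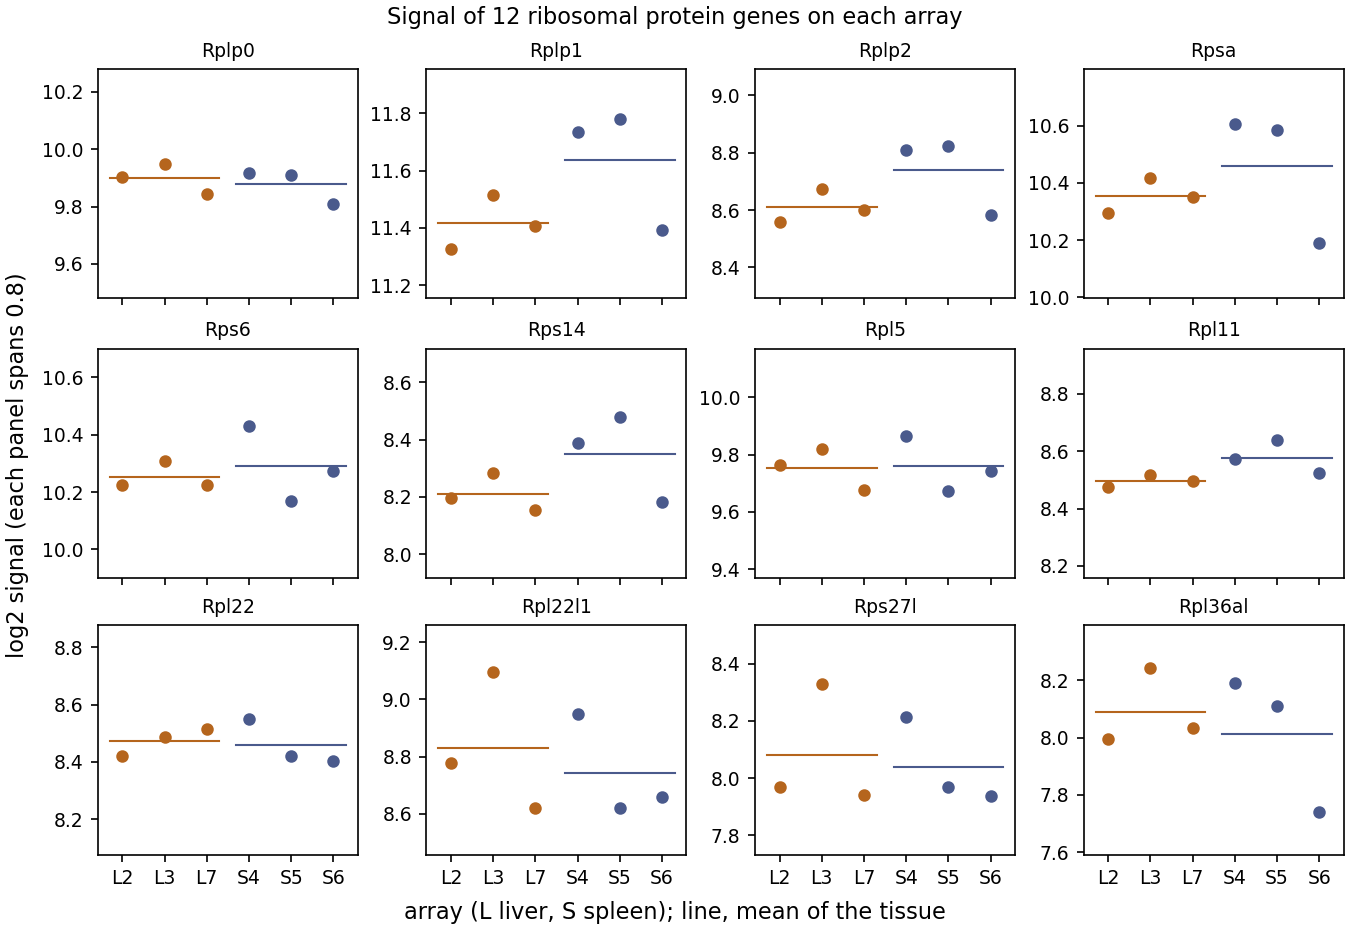
Log2 signal of 12 genes on liver arrays 2, 3 and 7 (L, orange) and spleen arrays 4, 5 and 6 (S, blue), with a line at the mean of each tissue, every panel spanning 0.8. Rplp1 and Rplp2 are high on spleen arrays 4 and 5 and not on array 6, while Rpl22l1 and Rps27l are high on liver array 3 and spleen array 4.

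The 11 paralogs and copies had a median difference of 0.03, above 0 in 9. Their median range over the arrays was 0.38, against 0.23 in the canonical members, 0.33 in the bright genes and 0.38 in all genes. Rpl22l1, the paralog that Rpl22 holds down in mice, measured 8.78, 9.10 and 8.62 in liver and 8.95, 8.62 and 8.66 in spleen. Liver array 3 and spleen array 4 were its high arrays, and the difference of 0.09 (95% interval -0.22 to 0.40) was the most positive of all members and smaller than the spread within either tissue. Rps27l, a p53 target, had the same high arrays, with 7.97, 8.33 and 7.94 in liver and 8.21, 7.97 and 7.94 in spleen, a difference of 0.04. Rpl36al, a copy of Rpl36a, measured 7.99, 8.24 and 8.03 in liver and 8.19, 8.11 and 7.74 in spleen, a difference of 0.08. Rpl7l1 measured 7.02, 7.18 and 6.82 in liver and 7.04, 7.09 and 6.80 in spleen. Liver array 3 was the highest array in all 4 of these genes, in 6 of the 11 paralogs and copies, and in 4 of the 76 canonical members. It was the highest in 20.9% of all genes and 37.6% of the bright genes, so the canonical members lay furthest from these shares.

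The parent genes did not share these high arrays to the same extent. The range over the 6 arrays was 0.48 in Rpl22l1 and 0.15 in Rpl22, 0.50 in Rpl36al and 0.18 in Rpl36a, and 0.38 in Rpl7l1 and 0.22 in Rpl7. Rps4l had the widest range of all members, 0.67, because spleen array 5 stood at 6.90 and the other arrays at 6.22 to 6.47. Rpl3l, the paralog of skeletal muscle and heart, was at 5.26 to 5.69 and Rpl39l, a testis paralog, at 5.37 to 5.51. Rpl10l, which replaces Rpl10 in male germ cells, was at 6.11 to 6.25. The background rows lay at 4.09 to 4.55, so tissue differences of these dim genes may be compressed. Their ranges were not all narrow, at 0.67 in Rps4l and 0.43 in Rpl3l but 0.13 in Rpl39l. Levels of different genes are not set against each other since each rests on its own probes.

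The contrast between single arrays was larger than that between tissues. Measured from each gene's own mean, the median deviation of the 87 genes was 0.11 on spleen array 4, 0.04 on liver array 3, 0.02 on spleen array 5, -0.04 on liver array 2, -0.06 on liver array 7 and -0.06 on spleen array 6. Spleen array 4 was the highest array in 61 of 87 members (70.1%), against 10.02% of all genes and 24.2% of the bright genes. All 76 canonical members were above their own mean on that array. Spleen array 6 was the lowest in 35 members, liver array 7 in 23, and liver array 2 and spleen array 5 in 13 each. Within spleen, array 4 exceeded array 6 in 84 of 87 members by a median of 0.18, against 80.7% of the bright genes by 0.13. Within liver, array 3 exceeded array 7 in 84 of 87 by 0.10, against 87.2% of the bright genes by 0.17.

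**Figure D3:**
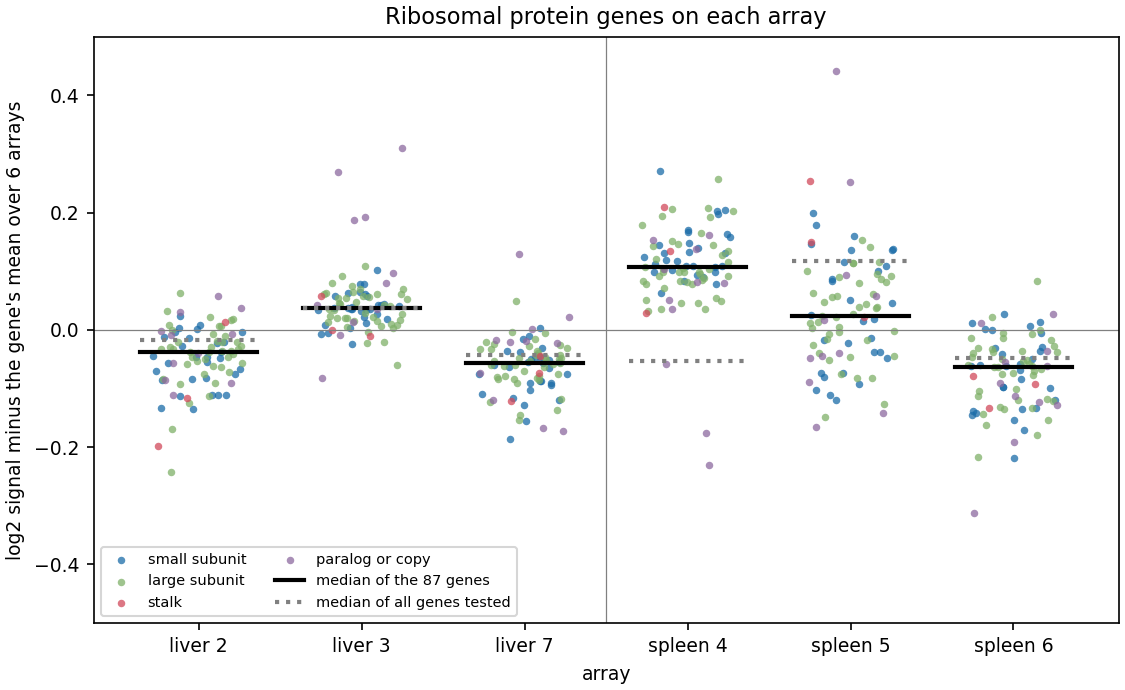
Log2 signal of each of the 87 genes minus its own mean over the 6 arrays, by array, with the median of the 87 genes (black line) and of all 38854 genes tested (dotted line). The medians part most on spleen array 4, at 0.11 and -0.05, and on spleen array 5, at 0.02 and 0.12.

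Relative to the deviation of all genes, the members stood 0.16 higher on spleen array 4, 0.09 lower on spleen array 5 and 0.00 to 0.02 lower on the other 4 arrays. These values moved with the scaling. After cyclic loess the members stood 0.06 above all genes on both spleen arrays 4 and 5, and after quantile normalization 0.07 and 0.04 above. Spleen array 4 was then the highest array in 30 members by loess and 37 by quantile normalization, and spleen array 5 in 44 and 34. The median of the members on liver array 2 was the lowest of the 6 under both. The place of spleen array 5 thus differed with the scaling, and its high background rows are given above.

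Spleen array 5 also split the members. Rplp1 stood 0.25 above its own mean there, and Rpsa, Rps14, Rps28, Rpl27a and Rplp2 were high on it too. Rps28 measured 8.37 on that array and 8.07 to 8.34 on the others. Rpl39, which lines the exit tunnel of the large subunit, was lowest there at 8.70 and between 8.79 and 8.97 elsewhere. Rpl17, Rps25 and Rps6 were also lowest on spleen array 5, with Rps25 at 10.60 there and 10.62 to 10.88 on the other arrays. These genes were picked from their values, as those with the highest and lowest deviations on that array.

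Genes of the machinery around the ribosome showed no called difference, and their medians lay close to 0. For the counts that follow, the bright genes had a median of 0.02 with 5596 of 9433 above 0. All genes had a median of -0.02 with 16453 of 38854 above 0. Without spleen array 6 the medians of the TOP, biogenesis, RNA polymerase I, initiation factor and growth control lists were below 0, at -0.06 to -0.03, and their difference from the ribosomal protein genes was not tested. With array weights 0 TOP, 2 biogenesis, 3 RNA polymerase I, 6 initiation factor and 1 growth control genes passed, where 9.09% of all genes did. The medians of these lists were then 0.07 (TOP) to 0.18 (initiation factors), beside 0.02 over all genes. None of 28 genes of translation factors and other TOP mRNAs passed the test, and their median difference was 0.02, with 17 above 0. The 2 largest were Nap1l1, a histone chaperone, at 0.14 and Ybx1, an mRNA-binding protein, at 0.14. None of 43 ribosome biogenesis genes passed, with a median of 0.02 and 25 above 0. Dkc1, the pseudouridine synthase of box H/ACA particles, measured 7.98, 8.07 and 7.86 in liver and 7.77, 7.66 and 7.65 in spleen. Its liver arrays lay wholly above its spleen arrays, as in 1 of the 43 genes and 3.11% of all genes. The difference of 0.28 (95% interval 0.04 to 0.52) did not pass (adjusted p = 1 by limma). Nop58, the core protein of box C/D particles, differed by 0.16.

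RNA polymerase I genes (20) had a median of 0.00, with none called and 10 above 0. Polr2f, a subunit shared by the nuclear polymerases, differed by 0.28 and Ttf1, a termination factor of ribosomal RNA genes, by 0.27, and liver arrays 2 and 3 carried both, since Ttf1 measured 8.21, 8.15 and 7.72 in liver and 7.74, 7.74 and 7.81 in spleen. None of 28 initiation factor genes passed, with a median of 0.06 and 20 above 0. Eif2b3, of the exchange factor for eIF2, differed by 0.31 without overlap of the groups and Eif2s1, the alpha subunit of eIF2, by 0.21. Liver arrays lay wholly above spleen arrays in 1 of the 28, against 3.11% of all genes. None of 20 genes of growth control by mTORC1 and Myc passed, with a median of 0.01. Mlst8, an mTORC1 subunit, differed by 0.15 and Zfp622, which acts late in the assembly of the large subunit, by -0.13.

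The mitochondrial ribosomal proteins, which make a separate ribosome, had a median above 0 that turned to -0.02 without spleen array 6. None of 75 genes passed the test, and with array weights 10 did, against 9.09% of all genes. The median difference was 0.05 and 57 were above 0, where the cytosolic proteins had 21 of 87 above 0 and the bright genes 5596 of 9433. Mrpl49 measured 8.52, 8.38 and 8.32 in liver and 8.30, 8.02 and 8.15 in spleen, a difference of 0.25 (95% interval -0.01 to 0.50). Mrpl51 differed by 0.23. Liver arrays lay wholly above spleen arrays in 6 of the 75, against 3.11% of all genes and 513 of the 9433 bright genes. The difference between the mitochondrial and the cytosolic set was not tested.

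Spleen array 6 marked several of these lists more than it marked the ribosomal proteins, and for the TOP genes this depended on the scaling. It was the lowest array in 35 of 43 biogenesis genes, 22 of 28 initiation factors, 52 of 75 mitochondrial ribosomal proteins and 17 of 28 TOP genes, against 35.5% of the bright genes and 35 of 87 ribosomal protein genes. For RNA polymerase I and growth control genes the counts were 9 of 20 and 10 of 20. The median deviation on that array was -0.18 for biogenesis genes, -0.17 for initiation factors and -0.06 for ribosomal protein genes. Spleen array 4 was the highest in 18 of 28 TOP genes and 12 of 75 mitochondrial ribosomal proteins. After subtraction of array medians, spleen array 6 was the lowest in 6 of 28 TOP genes, against 19 of 87 ribosomal protein genes and 21.4% of the bright genes. It was then the lowest in 31 of 43 biogenesis genes, 13 of 28 initiation factors and 37 of 75 mitochondrial ribosomal proteins.

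**Figure D4:**
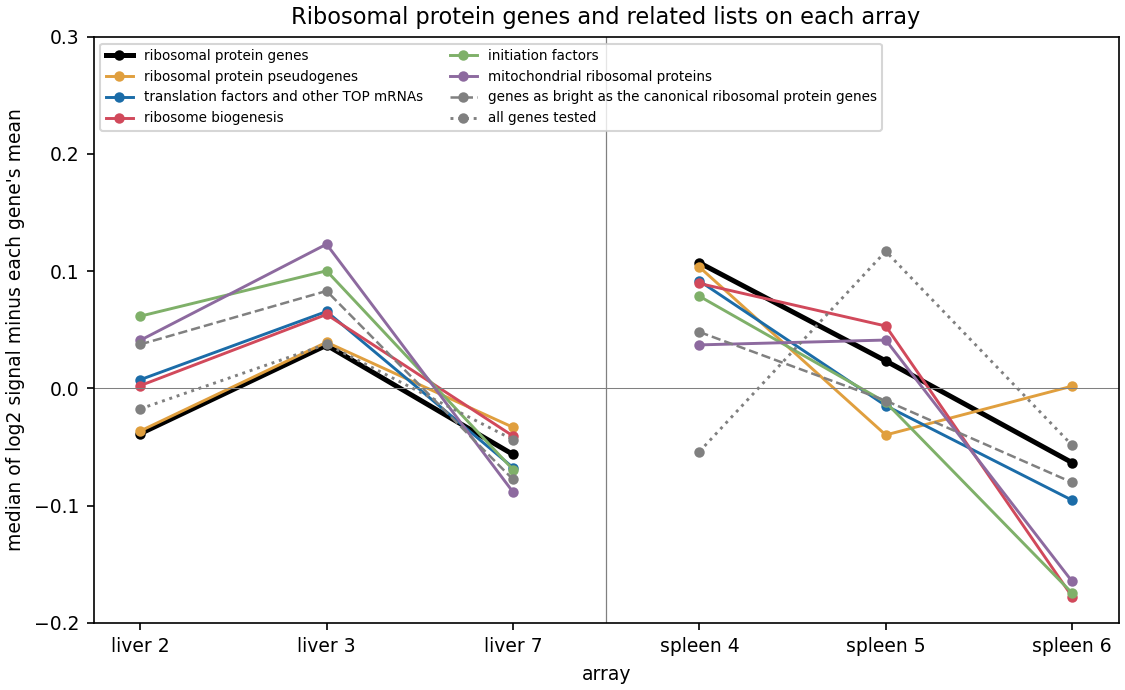
Median deviation of each list from its genes' own means, in log2 units, on each of the 6 arrays, where lines only join points of the same list within a tissue. On spleen array 6 the biogenesis genes, initiation factors and mitochondrial ribosomal proteins lie at -0.18 to -0.16 and the ribosomal protein genes at -0.06.

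Copies limit what a ribosomal protein signal can be assigned to. The genome holds many processed copies of these genes, and signals of a gene and of a near-identical copy cannot be told apart. For 5 members, Rpl7a, Rpl12, Rpl27, Rpl35 and Rpl41, the kept row has a cluster identifier of another chromosome than that of the gene in RefSeq, so its signal may belong to a copy. For Rpl12 the kept row, numbered for chromosome 10, measured 12.61 to 12.74 and the row numbered for chromosome 2, where RefSeq places the gene, 8.63 to 8.80. The difference between tissues was -0.02 by the first and 0.00 by the second. With the RefSeq rows in all 5, the median over the 87 genes was -0.04 and none was called. Rps3a2 and Rps3a3, near-identical to Rps3a1, differed by 0.00 and 0.03 and carry the same uncertainty.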

How the data were processed

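The authors deposited log2 signals, 1 per array and transcript cluster. Per the submitters' processing notes these were made with RMA in Affymetrix Expression Console, whose version is not stated. The genome build is not given in the sources used here. RMA compresses differences of dim genes. Of 72688 rows, 39514 had 1 symbol and were kept, 33087 had none and 87 had several. Per symbol the brightest row was used, giving 38854 genes.

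Liver was compared with spleen over all genes with limma 3.58.1 in R 4.3.3 (lmFit, eBayes, two-sided, Benjamini-Hochberg over all genes, threshold 0.05) without covariates. The procedure was tested on simulated data. For 1 gene, exact permutation of 3 against 3 arrays cannot go below p = 0.1 (two-sided). Members and lists were chosen with earlier results of these data known, so no p is given over a list. Named genes were a fixed set of 15 members, the paralogs with their partners, the 5 most positive and 5 most negative differences, the 5 highest and 5 lowest means, the 5 widest ranges within a tissue, and the 2 largest differences of each related list. Others were chosen after their values were seen, and a few genes are counted but not reported by name here.

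Alternatives were other scalings, filters on dim genes, averaged rows, eBayes options, array weights and each array left out. Row choice by RefSeq chromosome and leaving out paralogs and copies were added after seeing the data. RefSeq tables of GRCm38.p6 matched 86 of 87 symbols.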

Additional observations from a re-analysis of the deposited data

How the results depend on the processing

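No ribosomal protein gene was called by limma under any alternative run, including each array left out in turn (0 to 0 called), while array weights raised the calls over all genes from 8 to 3533. The median liver minus spleen difference ran from -0.08 to 0.01 when single arrays were left out, and turned positive only without spleen array 4. The number of members whose groups did not overlap was 1 as reported (6.19% of all genes) and 0 after subtraction of array medians. It was 8 after quantile normalization (5.06% of all genes lay wholly lower in liver) and 8 after cyclic loess (5.25%). With an array left out it was 1 to 36. The 36 were reached without spleen array 6 (35 of them lower in liver, as were 8.84% of all genes). Without liver array 3 it was 8, each lower in liver (7.4% of all genes). Without spleen array 5 it was 3, with 2 lower in liver (5.19% of all genes) and 1 higher (14.9%). Without spleen array 4 it was 2, with 1 lower (11.4%) and 1 higher (6.79%). The level of the members relative to all genes on spleen array 5 was -0.09 as reported, 0.0393 after quantile normalization and 0.0576 after cyclic loess, and on spleen array 4 it was 0.16 as reported and 0.0579 after cyclic loess. The cause of these shifts was not tested. Of 905 values of single genes and lists, 14 moved by more than the spread between replicates and 11 passed the threshold only with array weights. Of the 37 named members, 28 had a difference whose sign changed under at least 1 alternative. No paired analysis was possible because the labels do not say if liver and spleen arrays share animals. The array numbers, 2, 3 and 7 for liver and 4, 5 and 6 for spleen, do not tell this either. The arrays give no read depth, and dim paralogs near the background rows may have compressed differences.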

Other observations

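The pseudogenes that carry a ribosomal protein name had the pattern of the genes on spleen array 4 and another on the other spleen arrays. None of 215 passed limma's test at an adjusted p of 0.05, and with array weights 9 did, against 9.09% of all genes. Their median difference was -0.02, with 144 below 0. Spleen array 4 was the highest array in 143 of them (66.5%), beside 61 of the 87 genes. Spleen array 5 was the lowest in 91 of the 215, against 13 of the 87 genes, and spleen array 6 in 27, against 35 of the 87. The 2 largest differences were those of Rpl36-ps7, at -0.30 (95% interval -0.62 to 0.01), and Rpl9-ps5, at -0.28 (95% interval -0.63 to 0.06). Rpl36-ps7 measured 4.93, 5.36 and 5.27 in liver and 5.31, 5.74 and 5.42 in spleen, and Rpl9-ps5, at 3.48 to 4.22, lay partly below the background rows. Without spleen array 4 the median of the pseudogenes was 0.02.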
